A study of Mus musculus with 2 samples.

Results

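The Nanog-high cells were the top bin of a Nanog ranking of reporter-negative mouse embryonic stem cells, divided into 4 bins of nearly equal size, and they were set against the bottom bin, the Nanog-low cells. Cells of the negative library entered the ranking when they had at least 10000 UMIs (molecule counts), under 0.03% of UMIs from the 4 primitive endoderm genes Gata6, Sox17, Pdgfra and Dab2, and a Zfp42 share above the 10th percentile of those cells. Of 3832 cells in the negative library, 3824 had enough UMIs, 3599 were also under the endoderm limit and 3239 also passed the Zfp42 limit of 636 CPM (UMIs per 1000000 UMIs of the cell or group). Each of the compared groups held 809 of these cells, out of 8435 cells in the whole series. The members were chosen by measured values of Nanog, Zfp42 and the endoderm genes, so the levels of these 6 genes are given as a description of the choice and carry no finding.

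The cells were a mouse embryonic stem cell line with a GFP reporter driven by the promoter of MERVL, an endogenous retrovirus transcribed in cells that resemble the 2-cell embryo, and with the nuclear marker H2B-mIFP. One library was labelled MERVL GFP positive and 1 MERVL GFP negative, both from the same line, and strain, sex, passage, culture medium and sorting are not given in the sources used here. The Nanog-high and Nanog-low cells carried the same alleles, shared a label and were processed in 1 library. With 1 library and cells that are not replicates, no test between the groups was possible. The 95% intervals printed below cover counting error of UMIs or, for shares of cells, the sampling of cells. They cover no variation between libraries.

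Nanog is a homeodomain transcription factor of the pluripotency network, in which it acts with OCT4 (Pou5f1) and SOX2 to keep stem cells in the undifferentiated state. Its level is known to vary between embryonic stem cells of one culture, and cells that transiently lose it can regain it, while prolonged loss favours differentiation. Naive pluripotency factors such as Tbx3, Tfcp2l1, Klf4 and Esrrb are bound up with it in a mutually activating network, whereas FGF4 signalling through the kinase ERK acts against that network and moves cells toward lineage commitment.

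The Nanog gene (ENSMUSG00000012396) lies on the plus strand of chromosome 6, at chr6:122707489-122714633 in GRCm38, the assembly also called mm10. Its promoter window is shown because it holds the joined octamer and Sox motifs through which OCT4 and SOX2 are known to act on this gene. The window below is chr6:122707239-122707538 of GRCm38.p6, plus strand, from RefSeq, with 250 bases before the gene start and 50 from it. Capitals mark TTTGCAT, 1 base, and ACAATG.

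Nanog: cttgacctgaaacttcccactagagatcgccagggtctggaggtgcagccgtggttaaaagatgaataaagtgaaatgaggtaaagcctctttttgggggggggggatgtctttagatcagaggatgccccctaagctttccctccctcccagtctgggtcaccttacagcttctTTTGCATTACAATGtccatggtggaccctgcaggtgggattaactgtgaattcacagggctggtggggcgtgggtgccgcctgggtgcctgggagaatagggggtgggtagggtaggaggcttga

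The last motif base lay 62 bases before the gene start. Searched on both strands, the joined motif was found in 2 of 32851 promoter windows of the same length (0.00609%), and both were alternative Nanog windows. TTTGCAT alone was in 4.63% of windows and ACAATG alone in 12.6%, and each of these counts includes the Nanog windows. Of the 15 genes with the largest ratio in favour of Nanog-high cells, 10 had a window in the table; none held the joined motif, 1 (Elf3) held TTTGCAT, and 3 (Cited2, Gm13580 and Sgk1) held ACAATG. Of the 15 in the other direction 10 also had a window, with ACAATG in those of Ddx58, Lef1 and Slc16a3 and neither of the other motifs in any. These matches describe letters in these windows only.

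The labelled cell type was checked against marker genes. All 8 pluripotent stem cell markers passed the filter on low values used below, with a summed level of 15177 CPM in Nanog-high and 13112 CPM in Nanog-low cells. They include Zfp42, whose passing was fixed by the rule and carries no finding. Most of the sum came from Dppa5a. Of the 9 primitive endoderm markers, 4 of them limited by the rule, none passed it, and their sum was 13.4 against 10.5 CPM. Trophoblast markers summed to 2.49 against 2.72 CPM, mesoderm markers to 1.68 against 1.69 CPM, and fibroblast feeder markers to 3.01 against 2.94 CPM with Col3a1, Dcn, Lum and Postn at 0. The neural marker Tubb3, a tubulin, was above the filter at 49.7 against 35.2 CPM, and the summed level of the 4 neural markers was 56.1 against 41.7 CPM. Markers of the 2-cell-like state, such as Zscan4c, had 67 UMIs in Nanog-high cells and 1 in Nanog-low cells.

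A longer list of 2-cell-stage genes differed between the groups in the same way, with 214 UMIs (6.65 CPM) in Nanog-high cells and 69 UMIs (2.16 CPM) in Nanog-low cells. Of the 214 UMIs, 112 came from 4 cells, and 1 cell alone held 44. At least 1 such UMI was present in 82 Nanog-high cells (10.1%) and 53 Nanog-low cells (6.55%). The part of these few cells in the results below was not tested.

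The median kept cell stood at 175 CPM, with 28.3 CPM at the 5th percentile and 512 CPM at the 95th. Nanog-high cells ran from 287 to 2523 CPM and Nanog-low cells from 0 to 100.2 CPM. The lowest Nanog-high cell had 287.03 CPM and the cell just below it 286.95 CPM, while the highest Nanog-low cell had 100.17 CPM and the next cell 100.26 CPM. Within 10% of the upper border lay 308 kept cells and within 10% of the lower border 240, so each group is a range cut from a ranking. No Nanog UMI was found in 87 of the kept cells (2.69%), all of them in the Nanog-low group.

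**Figure D1:**
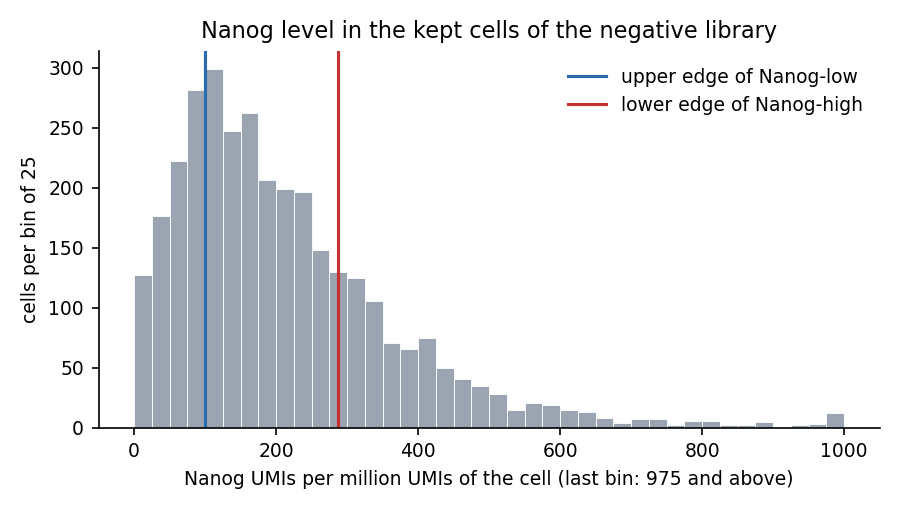
Histogram of Nanog CPM in the 3239 kept cells of the negative library (x axis, bins of 25 CPM, last bin open; y axis, cells). Vertical lines mark the highest Nanog-low cell at 100.2 CPM and the lowest Nanog-high cell at 287 CPM.

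Summed over cells, Nanog stood at 58.9 CPM (Poisson interval 56.3 to 61.6) in bin 1, the lowest of the ranking, 137 CPM (133 to 141) in bin 2, 227 CPM (222 to 232) in bin 3 and 431 CPM (424 to 438) in bin 4. The ratio of 7.32 between the outer bins contains sampling noise, because a Nanog-low cell had a median of only 2 Nanog UMIs and a Nanog-high cell a median of 15. When each cell's UMIs were divided at random into equal parts and cells were ranked in 1 part and read in the other, Nanog was at 367 against 107 CPM, a ratio of 3.43. After every kept cell was thinned to 10000 UMIs, Nanog had a variance over mean of 2.04, where counting noise alone gives a value near 1. That value was 1.18 for Pou5f1, 1.72 for Sox2, 1.34 for Tfcp2l1, 1.97 for Tbx3, 2.25 for Zfp42, 2.7 for Klf4, 5.57 for Spp1 and 12.2 for Dppa5a. The housekeeping genes Gapdh and Actb were at 3.11 and 3.04, so a value above 1 is not particular to Nanog. The measure grows with the mean level, which was 2.13 UMIs per thinned cell for Nanog and 3.95 for both Pou5f1 and Klf4. The mean was 29.0 for Gapdh, 15.6 for Actb, 13.9 for Zfp42 and 106 for Dppa5a, so their values cannot be set directly against that of Nanog.

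Depth was nearly matched between the groups. The median Nanog-high cell had 38052 UMIs, 5805 genes and 1.57% mitochondrial UMIs, and the median Nanog-low cell 38335 UMIs, 5767 genes and 1.64%. The 225 endoderm-rich cells that the rule left out stood at 27.0 CPM of Nanog, and the 360 cells at or under the Zfp42 limit at 103 CPM. A Nanog UMI was found after thinning in 98.5% of Nanog-high cells, 46.1% of Nanog-low cells and 15.6% of the endoderm-rich cells (100%, 89.2% and 42.2% before thinning).

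Nanog-high and Nanog-low cells differed by little across the transcriptome. Genes were described when they had at least 10 CPM in the pooled groups and at least 50 UMIs, which left 7075 genes besides Nanog, and a log2 ratio is that of CPM + 1 in Nanog-high over Nanog-low cells. Of these, 40 were at least 1.5-fold higher in Nanog-high cells (0.565%) and 36 at least 1.5-fold lower (0.509%). With a weaker rule, a log2 ratio of at least 0.32 in size, 3.27% were higher (231 genes) and 1.87% lower (132 genes), and at 2-fold only 7 genes were higher and 1 was lower. The median gene had a log2 ratio of 0.02, so more described genes were above 0 than below it. Counts of list members above or below 0 are to be read beside this. Under TMM and median-of-ratios scaling the counts were 34 higher with 42 and 40 lower, so the balance between the directions depends on scaling. The counts were 29 higher and 26 lower with groups ranked and read in different UMIs, and 13 and 10 with cells ranked on thinned Nanog UMIs.

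The CPM of all 15 leading higher genes increased over each of the 4 bins and that of all 15 leading lower genes decreased. Among all genes past 1.5-fold, 38 of 40 and 35 of 36 were ordered in this way. Over all described genes, most of them near a ratio of 1, 16.5% were ordered upward and 9.48% downward. Selecting genes by the outer bins of the same ranking favours such an order, so these counts are a description only.

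Core pluripotency genes had small differences in both directions. All 14 listed genes were described, none passed 1.5-fold, 2 passed the weaker rule toward Nanog-low cells, and the log2 ratios ran from -0.40 to 0.26 with a median of -0.01. Their summed level was 13736 CPM in Nanog-low and 15293 CPM in Nanog-high cells, most of it from Dppa5a. Pou5f1, which encodes OCT4, had 397, 385, 388 and 397 CPM from the lowest to the highest bin, a ratio of 0.998 (0.973 to 1.02). Its level was thus the same at both ends of the ranking within counting error. Sox2, the partner of OCT4 on DNA, had 524, 541, 576 and 630 CPM, a log2 ratio of 0.26. Sall4, a zinc finger factor of the same network, was at 0.23, and Dppa5a, an RNA-binding protein and the most abundant marker, at 0.22.

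Other members leaned toward Nanog-low cells. L1td1, an RNA-binding protein, had 448 CPM in Nanog-low and 340 CPM in Nanog-high cells (log2 ratio -0.40), and Utf1, a chromatin-bound factor, 503 and 397 CPM (-0.34). Lin28a, which blocks maturation of let-7 microRNAs, was at -0.31 and the Nodal co-receptor Tdgf1 at -0.11.

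Naive pluripotency genes leaned toward Nanog-high cells. Without Nanog and Zfp42, 19 of 21 listed genes were described, of which 5 were past 1.5-fold higher and 1 lower, and 10 were past the weaker rule higher and 2 lower. The median log2 ratio was 0.36, beside 0.02 over all described genes, and it was 0.33 with groups ranked and read in different UMIs and 0.23 with cells ranked on thinned Nanog UMIs. The 5 were Fgf4, Tfap2c, Tbx3, Tfcp2l1 and Fbxo15, and the lower gene was Gbx2. With cells ranked on thinned Nanog UMIs, Tbx3, Tfcp2l1 and Fbxo15 fell below 1.5-fold, at 0.48, 0.45 and 0.53. Fgf4, Tfap2c and Gbx2 stayed past it, at 0.66, 0.66 and -0.71. With groups ranked and read in different UMIs, Tfcp2l1 and Fbxo15 were also below 1.5-fold, at 0.53 and 0.54.

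Tbx3, a T-box factor that supports self-renewal, had 199, 236, 260 and 317 CPM over the bins, a ratio of 1.59 (1.54 to 1.64). Tfcp2l1, a factor that acts downstream of LIF and of GSK3 inhibition, had 93.2, 112, 124 and 147 CPM, a ratio of 1.58 (1.51 to 1.66). The intervals of these ratios overlap. Tfap2c, an AP-2 factor known for opening naive enhancers, had 30.7 CPM in Nanog-low and 53.9 CPM in Nanog-high cells (log2 ratio 0.79). Fbxo15, an F-box protein and an early reporter gene of pluripotency, had 98.6 and 154 CPM (0.64).

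Other naive factors were below 1.5-fold. Nr5a2, a nuclear receptor able to drive Pou5f1, had a log2 ratio of 0.53, Spp1, the secreted protein osteopontin, 0.49, Klf4 0.44, the AKT cofactor Tcl1 0.41, Klf2 0.36 and the imprint regulator Zfp57 0.31. Esrrb, a nuclear receptor that can stand in for Nanog in self-renewal, had 52.0 CPM in Nanog-low and 59.7 CPM in Nanog-high cells, a log2 ratio of 0.19. Klf5 at 0.08 and Nr0b1 at 0.06 were nearer still to 0. Over all 19 described genes of the list the log2 ratios ran from Gbx2 at -0.92 to Fgf4 at 1.07. Manba, a lysosomal mannosidase, leaned the other way at -0.34.

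**Figure D2:**
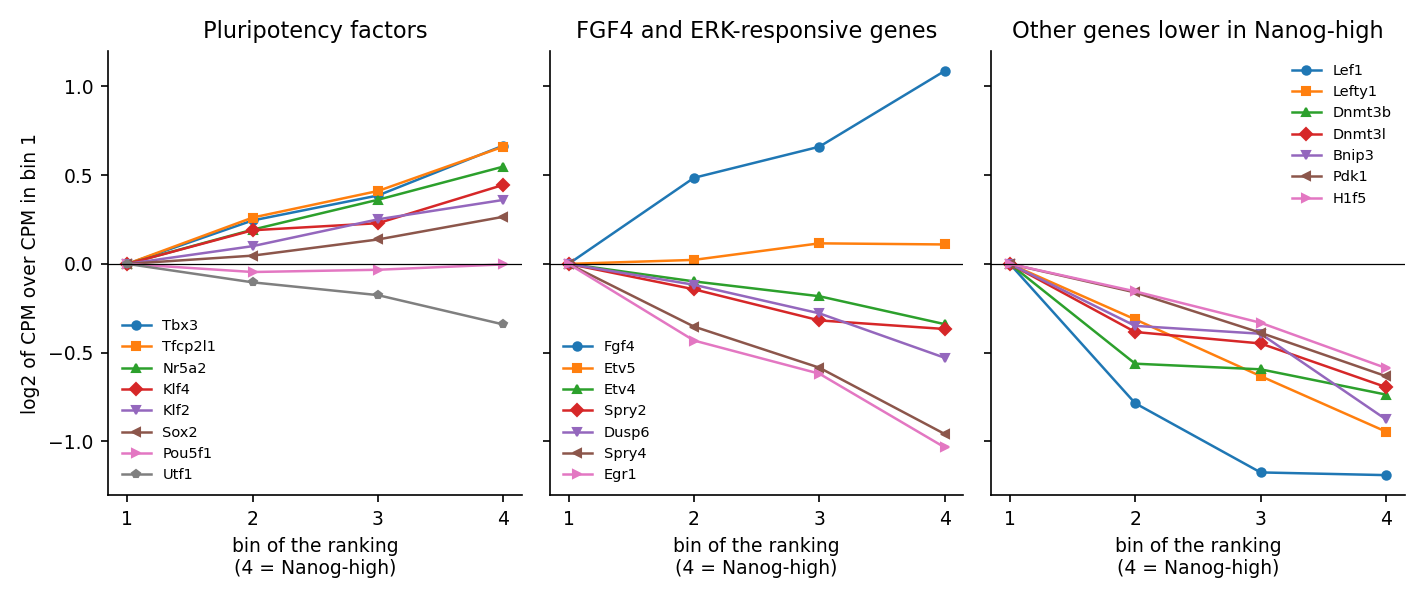
Log2 of the CPM in each bin of the Nanog ranking over the CPM in bin 1 (y axis) against the bin (x axis, 4 = Nanog-high), for pluripotency genes (left), Fgf4 and genes that respond to ERK (middle) and other genes lower in Nanog-high cells (right). Pou5f1 stands at 397 CPM in bins 1 and 4, while in bin 4 Fgf4 is at 127 CPM and Spry4 and Egr1 are at 37.3 and 13.8 CPM.

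Shares of cells gave the same order. A Tbx3 UMI was found in 89.7% of thinned Nanog-high cells (exact binomial interval 87.4 to 91.7) and 72.8% of Nanog-low cells (69.6 to 75.8), and in 98.8% and 94.6% before thinning. Of the thinned endoderm-rich cells 98.7% had a Tbx3 UMI. Tfcp2l1 was found in 74.0% of Nanog-high and 57.6% of Nanog-low cells after thinning, with 54.2% in the endoderm-rich cells. Sox2 was found in 99.8% and 98.5%, with 45.8% in the endoderm-rich cells, which have a median depth of 40328 UMIs. Pou5f1 was found in 96.4% and Utf1 in 95.1% of those same cells, and what share of such UMIs is free RNA was not tested.

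Summed per cell, the naive list took a median of 3539 CPM in Nanog-high cells (interquartile range 2946 to 4289) and 2699 CPM (2189 to 3301) in Nanog-low cells. The interquartile ranges overlap.

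Fgf4 encodes the ligand of the FGF pathway that embryonic stem cells themselves secrete, and it had the largest ratio of the described genes of that pathway. Fgf4 (chr7:144847367-144865243, GRCm38) had 59.8, 83.7, 94.5 and 127 CPM over the bins, a ratio of 2.12 (2.01 to 2.24). Its mRNA was found in 61.6% of thinned Nanog-high cells (58.1 to 64.9), 42.9% of Nanog-low cells (39.4 to 46.4) and 4% of the endoderm-rich cells (91.3%, 78.5% and 17.3% before thinning).

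The list of the FGF and ERK pathway, which shares Fgf4 with the naive list, had 13 of 22 members described, with 1 past 1.5-fold higher and 2 lower, and 2 past the weaker rule higher and 5 lower. Its median log2 ratio was -0.26. Spry4, a feedback inhibitor of receptor tyrosine kinase signalling, had 72.5, 56.7, 48.3 and 37.3 CPM over the bins, 1.94-fold lower (1.81 to 2.08) in Nanog-high cells. Egr1, an immediate early transcription factor, had 28.2, 20.9, 18.4 and 13.8 CPM, a log2 ratio of -0.98. Fgf4 was thus highest in bin 4, and Spry4 and Egr1 were highest in bin 1.

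Dusp6, the phosphatase that inactivates ERK, was at -0.50, Spry2 at -0.36, the ETS factor Etv4 at -0.33 and the inhibitor Spred2 at -0.31. These 4 genes did not pass 1.5-fold. Etv5 was at 0.11, the receptor Fgfr1 at -0.10, Myc at -0.01, and the cyclin gene Ccnd1 was higher in Nanog-high cells at 0.46. A Spry4 UMI was found in 24.6% of thinned Nanog-high cells (21.7 to 27.7) and 44.3% of Nanog-low cells (40.8 to 47.8), or 55.5% and 77.1% before thinning, with 45.8% of the endoderm-rich cells after thinning. Egr1 was found in 11.5% and 18.8%. Of the 8 described immediate early genes, which report recent stimulation or handling of cells, Egr1 and Junb were past 1.5-fold lower and 6 of 8 were below 0, with a median of -0.22. Whether handling had a part in these differences was not tested.

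Formative and primed genes, which mark the exit from naive pluripotency, did not lean one way. Of 26 listed genes 13 were described, 1 of them past 1.5-fold higher and 2 lower, with a median of 0.00. Lef1, a transcription factor of the Wnt pathway, had the largest ratio toward Nanog-low cells among the described genes, with 14.9, 8.64, 6.59 and 6.53 CPM over the bins, 2.28-fold lower (1.94 to 2.7). It passed the filter of 10 pooled CPM only through its level in Nanog-low cells. A Lef1 UMI was found in 5.93% of thinned Nanog-high and 13.2% of Nanog-low cells. Before thinning the shares were 15.1% and 28.4%, so the gene was detected in a minority of cells of both groups. The 10 highest cells held 24.3% of its UMIs in Nanog-high and 17.9% of those in Nanog-low cells. Foxd3, a forkhead factor kept on the list for its part in the formative state, was higher in Nanog-high cells at 0.82. Otx2, the factor best known for opening the formative state, was at 0.16, with 20.4 and 23.0 CPM, and Tcf7l1, a Wnt-pathway repressor, at 0.46.

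Of 12 described genes of DNA methylation, Dnmt3b and Dnmt3l were past 1.5-fold lower and none was past 1.5-fold higher, with a list median of -0.03. Dnmt3b, a de novo methyltransferase, had 38.9, 26.3, 25.8 and 23.3 CPM over the bins, a log2 ratio of -0.71. Dnmt3l, the cofactor of these enzymes, had 93.6, 71.7, 68.6 and 57.9 CPM, at -0.68, and Dnmt3a was at -0.32. Most of the step for Dnmt3b lay between bins 1 and 2. The maintenance enzyme Dnmt1 was at -0.02 and its partner Uhrf1 at 0.10. Tet2, which oxidises methylated cytosine, was higher at 0.43 and Tet1 was at -0.10.

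A Dnmt3l UMI was found in 85.8% of the thinned endoderm-rich cells, beside 38.7% of Nanog-high and 54.1% of Nanog-low cells. The 9 primitive endoderm markers, 4 of them limited by the rule, summed to 10.5 CPM in Nanog-low and 13.4 CPM in Nanog-high cells. The longer endoderm list without the genes of the rule summed to 605 CPM in Nanog-low and 565 CPM in Nanog-high cells, and the part of such cells in the Dnmt3l difference was not tested. On the longer endoderm list, outside the genes of the rule, 6 members were described, with Col4a1, a basement membrane collagen, past 1.5-fold higher in Nanog-high cells and a median of 0.24, which turned to -0.47 when the endoderm limit was left out of the rule.

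The Nodal list had Lefty1, a secreted Nodal inhibitor, as its 1 gene past 1.5-fold among 9 described. Of the 9 genes 5 were above 0, and the list median was 0.08. Lefty1 had 23.2, 18.7, 14.97 and 12.1 CPM over the bins, a log2 ratio of -0.89. Its UMIs came from few cells, with 42.3% of those in Nanog-low and 52.6% of those in Nanog-high cells found in the 10 highest cells of each group. Thinned shares were 12.1% of Nanog-low and 6.18% of Nanog-high cells, with 6.67% of the endoderm-rich cells. Before thinning these shares were closer, at 23.1%, 17.4% and 20.9%.

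LIF-linked genes diverged among themselves. Of 16 described genes of the list on LIF and the 2 inhibitors of naive culture, 2 were past 1.5-fold higher, Sgk1 and Tfcp2l1, and 2 lower, Gbx2 and Junb. Sgk1, a serum-responsive kinase, had 128, 154, 181 and 236 CPM over the bins, at 0.88. Gbx2, a homeobox factor downstream of STAT3, had 21.5, 18.1, 14.4 and 10.9 CPM, at -0.92. Socs3, the feedback inhibitor of the LIF receptor, was at -0.41. The list median of -0.13 lay between -0.16 and 0.03 over the alternatives, on both sides of 0.

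The other leading higher genes were of mixed function. Calcoco2 (chr11:96099326-96111964, GRCm38), an autophagy receptor, had 49.1, 71.6, 87.6 and 152 CPM over the bins, a ratio of 3.10 (2.93 to 3.29). It had the largest ratio of the described protein-coding genes other than Nanog. The share of thinned cells with a UMI was 51.5% in Nanog-high, 28.4% in Nanog-low and 61.3% in endoderm-rich cells. Gm49089 (chr15:33831448-33834353, GRCm38), an unclassified transcript, had the largest ratio of the described genes other than Nanog, 24.6 against 6.07 CPM. It passed the filter of 10 pooled CPM only through its level in Nanog-high cells, and 44.8% of its UMIs there came from 10 cells. Other leading genes of low level may have passed in the same way.

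The water channel Aqp3 (log2 ratio 1.19), the basic helix-loop-helix factor Msc (1.06), the transcription coregulator Cited2 (0.97) and the membrane peptidase Mme (0.91) were also at the head of the ranking. Cited2 had 55.0, 71.5, 83.2 and 109 CPM over the bins. Jam2, a junctional adhesion molecule, had 148, 177, 210 and 265 CPM, at 0.84, and was found in 85.0% of thinned Nanog-high and 68.9% of Nanog-low cells. It was thus the most widely detected of the 15 genes in Nanog-high cells. S100a13 and Cdc42ep3 (0.90 each) and the ETS factor Elf3 (0.84) were further protein-coding genes of the 15. S100a13 took 31.6% of its UMIs in Nanog-high cells from 10 cells. The noncoding genes 6330410L21Rik and Gm13580 were at 1.18 and 1.14. For 6330410L21Rik the 10 highest cells held 22.9% of the UMIs in Nanog-high and 37.3% of those in Nanog-low cells. Of the 15 higher genes 5 overlap another annotated gene, 6330410L21Rik (Egf), Msc, Cdc42ep3 and Elf3 on the other strand and Jam2 on the same strand, and their values are uncertain because the use of strand in counting is not given in the sources used here. Kit, the receptor of stem cell factor, lay outside the 15 genes, at 0.75.

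Among the other leading lower genes, Bnip3, Ndufa4l2 and Slc16a3 are known to respond to low oxygen, though Ndufa4l2 was not on the hypoxia list used here. Bnip3, a mitophagy receptor, had 79.0, 62.0, 60.1 and 43.0 CPM over the bins, at -0.86. Ndufa4l2, a mitochondrial protein, had 29.1, 23.5, 20.8 and 14.6 CPM, at -0.95, and the lactate exporter Slc16a3 was at -0.73. With cells ranked on thinned Nanog UMIs, Bnip3, Ndufa4l2 and Slc16a3 were below 1.5-fold, at -0.53, -0.56 and -0.35. With groups ranked and read in different UMIs they were past it, at -0.61, -0.62 and -0.67. Pdk1, the kinase that shuts off pyruvate dehydrogenase, was not among the leading genes and was at -0.62. Of 13 described genes of the hypoxia list 2 were past 1.5-fold lower, none was higher and 10 were below 0, with a median of -0.19. Of 18 described glycolysis genes 2 were past 1.5-fold lower and 16 were below 0, with a median of -0.18, which was -0.08 with cells ranked on thinned Nanog UMIs. The highest glycolysis gene was the glucose transporter gene Slc2a3 at 0.51. The hypoxia and glycolysis lists have members in common and are not independent.

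Vegfa, a classic target of low oxygen, was at 0.37, so the hypoxia list was not uniform. Genes of nuclear-encoded oxidative phosphorylation had a median of 0.04 with 34 of 34 described and none past the weaker rule. The amino acid transporter Slc7a7 (-1.0), the gap junction protein Gja1 (-0.83), the zinc finger gene Zfp532 (-0.82), the neuropeptide precursor Trh (-0.79), the RNA sensor Ddx58 (-0.77) and the FGF signalling regulator Cnpy1 (-0.74) completed the 15 lower genes. Trh was the most abundant of the 15, with 84.3 CPM in Nanog-low and 48.5 CPM in Nanog-high cells. Of the 15 lower genes 8 overlap another annotated gene, which makes their values uncertain in the same way: Junb (Prdx2), Ndufa4l2 (Shmt2), Slc7a7 (Oxa1l), Spry4, Gbx2 and Bnip3 on the other strand, and Lef1 and Zfp532 on both strands.

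**Figure D3:**
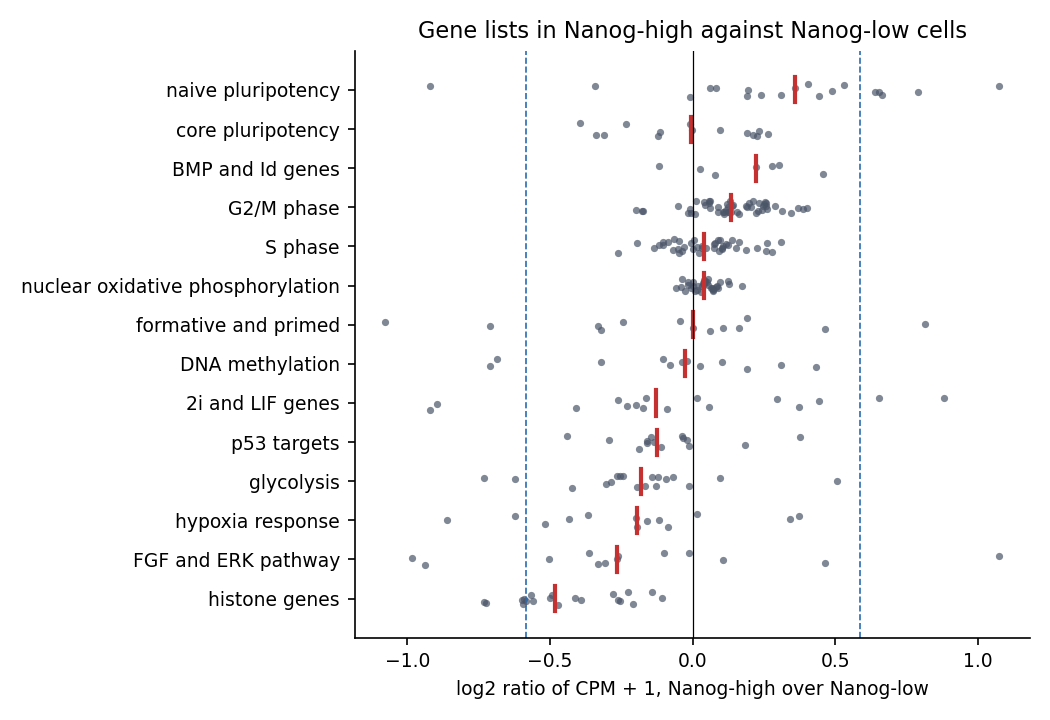
Log2 ratio of CPM + 1 in Nanog-high over Nanog-low cells (x axis) for each described gene (points) of 14 lists (y axis), with the list median in red and 1.5-fold as dashed lines. The naive list has its median at 0.36 and the core list at -0.01, while all 20 histone genes lie below 0 with a median of -0.48.

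Histone and G2/M genes were ordered along the ranking as well. A histone list, written after their values were seen, had 20 of 66 genes described, of which 6 were past 1.5-fold lower, 13 past the weaker rule lower and all 20 below 0, with a median of -0.48. Their summed level was 2049, 1870, 1661 and 1443 CPM from the lowest to the highest bin. The linker histone gene H1f5 had 744 CPM in Nanog-low and 495 CPM in Nanog-high cells. Reads of histone genes can be shared among close copies, which makes each member's own value uncertain.

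S phase genes, 42 of which were described, had a median of 0.04 and none past the weaker rule. G2/M genes had a median of 0.13, with 52 of 52 described, 45 above 0 and 4 past the weaker rule higher, among them the kinesin Kif2c (0.40) and the spindle protein Nusap1 (0.39). When cells were divided by their G2/M share and ranked anew, the histone median was -0.20 in the lower and -0.66 in the upper part. The naive median was 0.45 and 0.34 in the same parts, and the FGF and ERK median -0.22 and -0.23.

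Divisions by the share of histone UMIs and by the share of hypoxia-list UMIs, both added after the data were seen, gave naive medians of 0.30 and 0.39, and of 0.43 and 0.30, in the lower and upper parts. The part of cell cycle position and oxygen response in the single genes was not tested.

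Polycomb genes had a median of 0.04, none past 1.5-fold and Mtf2, a subunit of the repressive complex, highest at 0.46. Medians were -0.12 for p53 targets, -0.01 for germline genes, -0.01 for the integrated stress response, -0.01 for metallothionein genes and 0.02 for cell adhesion genes, in which Jam2 was past 1.5-fold higher and Icam1 lower. Of the 14 described p53 targets 12 were below 0, beside a median of 0.02 over all described genes. Of 7 described BMP and Id genes none passed 1.5-fold and 6 were above 0, with a median of 0.22, which was 0.08 with cells ranked on thinned Nanog UMIs and had the opposite sign in the positive library under the same rule, at -0.15 in all kept cells and -0.27 in cells under the limit on 2-cell genes given below. In the negative library Id2, an inhibitor of differentiation, was at 0.46. The interferon-inducible gene Bst2, in no list, had 147 CPM in Nanog-low and 98.3 CPM in Nanog-high cells (-0.58) and was chosen with its value known.

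Around the Nanog gene, all 5 described genes of the list of neighbours were above 0, with a median of 0.17 and none past 1.5-fold. Slc2a3, a glucose transporter whose annotated end lies 13.2 kb away, had 269, 302, 335 and 382 CPM over the bins, a log2 ratio of 0.51. Gdf3, a TGF-beta family ligand, was at 0.14, Necap1 at 0.17, Rimklb at 0.16 and Mfap5 at 0.29. Dppa3, a maternal factor and naive marker, was under the filter at 10.3 against 6.72 CPM. Outside that list, the other 3 described genes within 500 kb were below 0, with the Polycomb subunit Phc1 at -0.15, the pseudogene Rps27a-ps3 at -0.07 and M6pr at -0.05. The listed neighbour C3ar1 had 0 UMIs in both groups, with an exact Poisson upper limit of 0.115 CPM in each.

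The same rule was then applied to the reporter-positive library, whose cells had no part in the choice of members. There 3505 cells were kept, and the 876 Nanog-high cells stood at 1028 CPM of Nanog against 80.3 CPM in the Nanog-low cells. Only 7 of the kept cells had 0 UMIs of the 2-cell list. The rule was therefore also run on the 2014 kept cells with under 0.05% of UMIs from that list. This limit was chosen after the data were seen, and how much 2-cell RNA the remaining cells still carried was not tested. In these 2014 cells, 503 cells per group had 1017 against 125 CPM of Nanog and median depths of 32363 and 32349 UMIs.

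Most of the genes named by the negative library had the same direction in the positive one. Of the 40 higher genes 39 were described in the cells under the 2-cell limit, 37 were above 0 (44.8% of genes described in both libraries were) and 21 were past 1.5-fold higher, where 0.907% of all 7607 described genes were. Of the 36 lower genes 28 were described, 27 were below 0 (55.2% of genes described in both libraries were) and 23 were past 1.5-fold lower, beside 1.08% of all. In all kept positive cells, where 1.42% of genes were past 1.5-fold higher and 4.52% lower, 26 of 39 and 16 of 26 were past it. Across 6905 genes described in both libraries the log2 ratios had a Pearson r of 0.64, and of 0.50 (6824 genes) with all kept cells. Genes are not independent, the rule and the Nanog ranking are shared, and each library is 1 sample, so these values describe the agreement of a pair of libraries.

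Fgf4 had 207 against 97.5 CPM in the positive cells under the limit (log2 ratio 1.08), nearly the same ratio as in the negative library at a higher level. Calcoco2 was at 1.18, Sgk1 at 1.17, Jam2 at 1.03, Tbx3 at 0.98 and Tfcp2l1 at 0.70. Spry4 had 24.2 against 65.9 CPM (-1.41), and Egr1 was at -1.14, Dnmt3b at -1.26 and Lefty1 at -2.05. Among the other feedback genes Dusp6 and Spred2 were at -0.56 each and Spry2 at -0.15. The FGF and ERK list as a whole had a median of -0.15 under the limit and 0.005 in all kept positive cells, so its lean in the negative library was not seen in the latter.

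Several genes did not follow. Tfap2c was at -0.04 and Msc at 0.12 in the positive cells, against 0.79 and 1.06 in the negative ones. Sox11, a neural-lineage factor past 1.5-fold lower in the negative library, was at 0.24. Pou5f1 was at -0.12. Esrrb kept its direction and was at 0.45, beside 0.19 in the negative library. The naive list had a median of 0.26 under the limit and 0.71 in all kept cells. Whether these genes differ between the libraries was not tested, since each library is 1 sample.

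**Figure D4:**
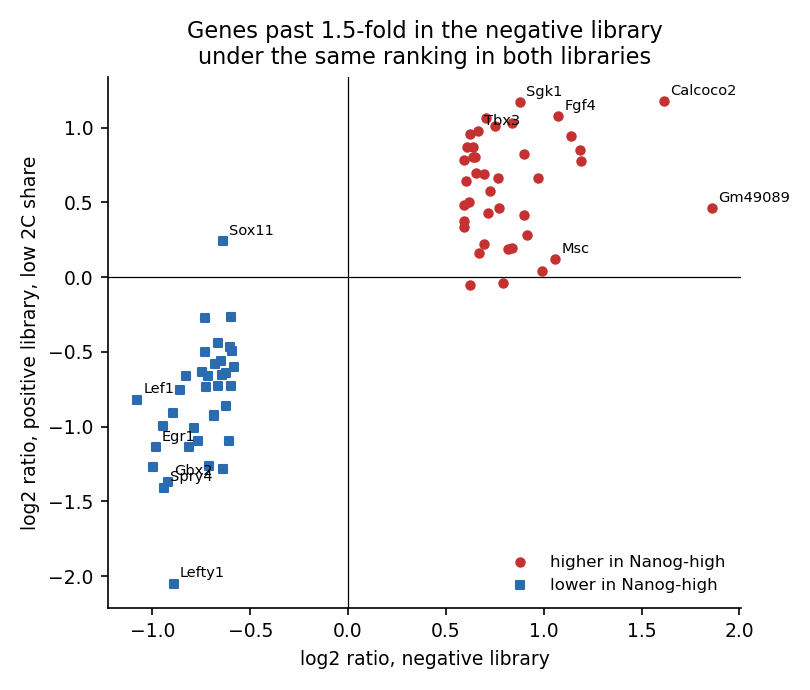
Log2 ratio of CPM + 1 in Nanog-high over Nanog-low cells in the negative library (x axis) and in positive-library cells under the 2-cell limit (y axis) for the 76 genes past 1.5-fold in the negative library, including those under the filter in the positive one. Most points share a sign in both libraries; Fgf4 lies at 1.07 and 1.08, Lefty1 at -0.89 and -2.05, and Sox11 is the lower gene above 0.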

How the data were processed

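Single-cell transcriptomes of 1 MERVL-GFP positive and 1 MERVL-GFP negative library were used. The deposited matrices hold unnormalized counts for each gene in each cell; with 16-base barcodes these are taken as UMIs, which no label states. The submitters' processing notes name FastQC 0.11.2, Trim Galore 0.6.4, STAR 2.7.6a and mm10; cell calling, annotation and strand use are not given in the sources used here. Of 55415 feature IDs, 52081 matched GENCODE M21, which gave the coordinates.

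The labels' extraction text describes a kit for total RNA and does not say how single cells were captured. The negative library held 156406894 UMIs, with a median of 39099.5 per cell and a range from 9354 to 174333. The libraries share 3 barcodes, 0 of them among the compared cells. No doublet caller was run, so doublets remain.

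UMIs were summed per group and scaled to CPM, with a pseudocount of 1 CPM for ratios. Intervals were exact Poisson, binomial (Clopper-Pearson) and conditional. Counting of molecules without replicate libraries allows no p-value. The members and lists were chosen with earlier results of these data known. Named genes were the described core, naive and locus genes, the 15 largest ratios in each direction with the same direction under every scaling, and from each other list up to 2 members per direction past 0.32 on the log2 scale; other genes were chosen after their values were seen, and some genes under the rule are not reported here. Alternatives changed scaling, pseudocount, filters, limits, depth, thinning, group size and cell cycle share. Only the rule of size on the fold was tested on simulated data, as Poisson counts with known fold changes. The software was edgeR 4.0.16 in R 4.3.3 and, in Python 3.11.15, pandas 2.3.3, scipy 1.17.1 and numpy 2.4.6.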

Additional observations from a re-analysis of the deposited data

How the results depend on the processing

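No paired analysis was possible because both groups come from the same single library. Over 27 alternative settings the naive median ran from 0.21 to 0.51. The primitive endoderm median (0.24) ran from -0.47 to 0.57, histone (-0.48) from -0.66 to -0.08, hypoxia (-0.19) from -0.33 to -0.05, immediate early (-0.22) from -0.42 to -0.07, FGF and ERK (-0.26) from -0.39 to -0.17 and G2/M (0.13) from 0.004 to 0.18. Glycolysis (-0.18) ran from -0.24 to -0.08 and BMP and Id (0.22) from 0.06 to 0.36. Of the values of list medians besides the naive one, 28 left the order-statistic interval of the reported median and 620 stayed inside it, among them values near 0 that changed sign. Of the values of followed genes, 446 left the counting interval of the reported ratio and 1174 stayed inside it. The 34 followed genes past 1.5-fold had the reported direction in all 918 values, which the choice of genes with 1 direction under every scaling fixes in part. Counts of genes at least 1.5-fold higher and lower, 40 and 36 as reported, were 25 and 19 with a pseudocount of 5 CPM, 114 and 69 with at least 1 pooled CPM, 119 and 74 without a CPM filter, 231 and 132 past a log2 ratio of 0.32, 7 and 1 at 2-fold, 13 and 10 when ranked on thinned Nanog UMIs, 128 and 72 for the top and bottom 10% and 8 and 2 for the top and bottom 50%. In cells of lower G2/M share 21 were lower. Thresholds and group sizes change counts by construction. With a median of 2 Nanog UMIs per Nanog-low cell, depth limits how sharply the groups are divided. The planned run on positive-library cells with 0 UMIs of the 2-cell list left 7 cells and was not run; the limit of 0.05%, the histone and hypoxia divisions and the removal of shared barcodes were added after the data were seen.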
